A study of Homo sapiens with 15 samples.

Results

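The androgen receptor acts through coregulators, and the loops of the promoters of 8 of their genes were followed through 5 time points of androgen treatment: NCOA1, NCOA2, NCOA3, MED1, EP300, CREBBP, KDM1A and NCOR1. A loop was a pair of 1 kb anchors, and it was given to a gene where 1 of its anchors fell within 2.5 kb of the point where the gene's canonical transcript begins (Gencode release 44, GRCh37, which is hg19). All 8 genes had at least 1 loop, and together they held 208 of the 505995 different loops. The rule gave loops to genes by position only. The loops themselves were called by the authors from read pairs merged over time for each mark, so which loops exist depends on contact.

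Contacts came from HiChIP, which ligates DNA ends that lie close together in the nucleus and then enriches the ligated fragments with an antibody against a histone mark. H3K27ac marks active enhancers and promoters, and H3K4me3 marks active promoters. The cells were LNCaP, an androgen-responsive line established from a prostate carcinoma metastasis. Every group was grown for 3 days in charcoal-stripped serum, which removes steroid hormones, and then received 10 nM dihydrotestosterone (DHT), the most potent natural androgen, or EtOH as vehicle (0 m). DHT exposure lasted 30 m or 4 h in the early groups and 16 h or 72 h in the late ones. H3K27ac was assayed in 10 samples (2 per time point) and H3K4me3 in 5 (1 per time point). Each loop carries a single deposited value for a mark at a time, and hence no comparison below has a replicate error or a p-value. The 95% intervals come from the numbers of read pairs and express counting error alone. A single cell line gives no spread between donors, and in a bulk contact map more cells with a contact, more contact per cell and more of the mark at the anchors cannot be told apart.

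The tables held 2475168 to 4308555 read pairs per time point for H3K27ac and 2153262 to 10675614 for H3K4me3, with a median of 1 to 7 read pairs per loop. Contact is given in the authors' TMM-scaled units, in which 1 read pair was worth between 0.0792 and 0.342. The promoters of the luminal prostate genes KLK3 and KLK2 had loops, with a summed H3K27ac contact of 213 and 120.4 at 16 h. None of 3 basal promoters had a loop, against 1 of 3 stromal (COL1A1, at 29.7) and 1 of 3 leukocyte promoters (CD3E, at 5.73).

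On binding its hormone the receptor enters the nucleus, binds DNA near forkhead factors such as FOXA1, and recruits coregulators that write, read or remove chromatin marks. The p160 coactivators NCOA1, NCOA2 and NCOA3 dock on the hormone-bound receptor and bring in the acetyltransferases EP300 and CREBBP, which place H3K27ac. MED1 is the Mediator subunit that nuclear receptors contact to engage RNA polymerase II. KDM1A removes methyl groups from histone H3 and serves the receptor in repression as well as activation, and NCOR1 is a corepressor that carries histone deacetylase activity to it.

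The 8 promoters differed widely in the number of loops. NCOA3 had 47 loops, MED1 46, NCOA2 35, EP300 34 and NCOR1 34, all above the median of 20 loops over the 16005 coding promoters that had any. KDM1A had 8 loops, NCOA1 had 3 and CREBBP had 1. Of the 208 loops, 63 were called with H3K27ac alone, 81 with H3K4me3 alone and 64 with both. Their median length per gene ran from 5 kb (CREBBP) to 290 kb (MED1), the longest being a loop of NCOA3 at 1530 kb. Partners lay in the body of the same gene in 50 loops, in another coding gene in 58, between genes in 62 and at another coding promoter in 38, of which MED1 accounted for 16.

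The small numbers at CREBBP and NCOA1 follow in part from where the 1 kb anchors fall, since each anchor is the centre of a 5 kb bin. Where the whole 5 kb bin was allowed to overlap the promoter, CREBBP had 43 loops and NCOA1 36, whereas NCOA3, MED1 and KDM1A kept their 47, 46 and 8. CREBBP and NCOA1 are therefore also given under the 5 kb overlap where their H3K27ac levels and changes are described.

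Most starts lay in sequence rich in G and C. Over the 300 bases from 250 before to 50 after the start, G and C made up from 52.0% (MED1) to 85.7% (NCOA1) of the bases, against a median of 63.7% over 19528 coding promoters. The GC box GGGCGG, searched on both strands, was found at NCOA1, NCOA2, CREBBP and KDM1A, which is 4 of 8 members against 61.8% of all promoters. The ETS motif CCGGAAG was found at NCOR1 alone, against 14.1% of all promoters, the androgen response element's repeat unit AGAACA at NCOA1 alone, against 10.6%, and the forkhead motif TGTTTAC at none, against 2.41%. NCOA1 held 10 GC boxes and CREBBP 3, whereas EP300 held none despite 75.3% G and C. The 150 bases before these 3 starts, which differ in GC boxes, are shown. CREBBP had the group's largest change in contact with the 1 kb anchors, though not under the 5 kb overlap. EP300 is the acetyltransferase partner with which it is compared, and NCOA1 is the richest in G and C. Capitals mark GC boxes on either strand, which run together where they overlap.
CREBBP, chr16:3930715-3930864, minus strand: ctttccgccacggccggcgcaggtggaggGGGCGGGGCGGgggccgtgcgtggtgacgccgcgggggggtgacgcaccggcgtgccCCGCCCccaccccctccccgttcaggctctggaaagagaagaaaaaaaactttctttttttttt
EP300, chr22:41488446-41488595, plus strand: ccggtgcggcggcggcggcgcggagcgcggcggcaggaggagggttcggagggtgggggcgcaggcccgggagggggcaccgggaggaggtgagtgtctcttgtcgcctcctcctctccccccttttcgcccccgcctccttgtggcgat
NCOA1, chr2:24713973-24714122, plus strand: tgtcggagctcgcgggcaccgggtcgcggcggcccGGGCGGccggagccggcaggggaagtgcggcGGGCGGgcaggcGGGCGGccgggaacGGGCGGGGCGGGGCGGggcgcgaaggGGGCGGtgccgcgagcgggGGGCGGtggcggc

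The level of contact before androgen ran over more than an order of magnitude. Before DHT the summed H3K27ac contact was 136 (95% interval 124 to 149, 463 read pairs) for NCOR1, 70.8 for MED1, 67.0 for EP300, 65.5 for NCOA3, 32.0 for NCOA2, 7.64 for NCOA1, 6.17 for CREBBP and 2.35 for KDM1A. NCOR1 lay at percentile 98.3 of the coding promoters with loops and KDM1A at percentile 17.2. Between neighbours in this order, the ratio of MED1 to EP300 was 1.06 (0.878 to 1.27), of EP300 to NCOA3 1.02 (0.846 to 1.24) and of NCOA1 to CREBBP 1.24 (0.670 to 2.31), all with intervals that include 1. CREBBP exceeded KDM1A 2.63-fold (1.12 to 6.85), and NCOR1 exceeded MED1 1.92-fold (1.64 to 2.25). Under the 5 kb overlap the order turned for NCOA1, at 60.5 (206 read pairs) against 40.8 for NCOA2 (139 read pairs). CREBBP, at 42.0 (143 read pairs), was then level with NCOA2, and no interval of their ratio was computed. A summed contact grows with the number of loops, and per loop the order was another, with a mean H3K27ac contact at 0 m of 6.17 for the lone CREBBP loop, 4.00 for NCOR1, 2.55 for NCOA1, 1.97 for EP300, 1.54 for MED1, 1.39 for NCOA3, 0.915 for NCOA2 and 0.294 for KDM1A. The mean over the 43 CREBBP loops of the 5 kb overlap was 0.977. In H3K4me3 at 0 m, NCOR1 (121) and MED1 (111) were highest, with a ratio of 1.08 (0.943 to 1.25).

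**Figure D1:**
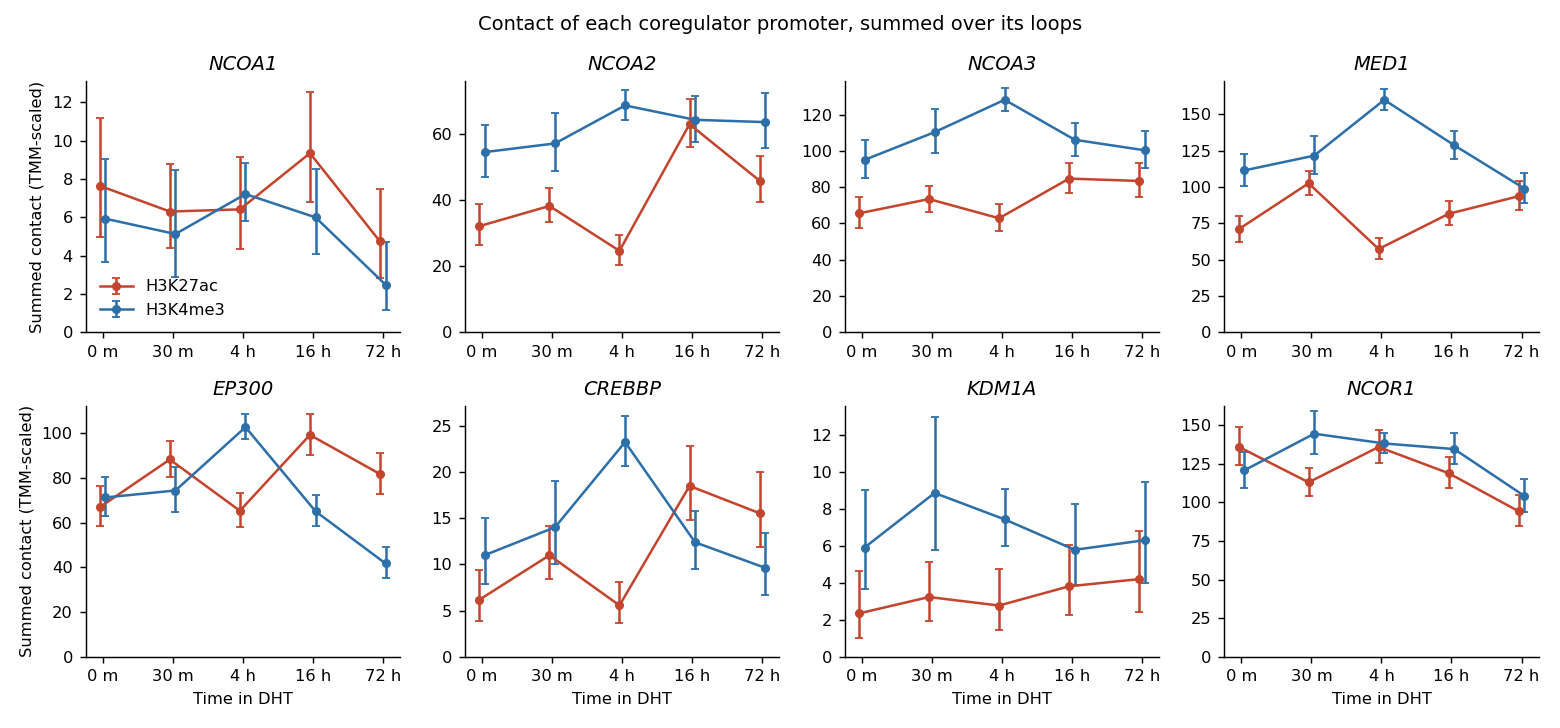
Summed contact (y axis, TMM-scaled units, each panel with its own scale from 0) of each promoter against duration of DHT (x axis, the 5 time points as categories, not to scale), H3K27ac in red and H3K4me3 in blue; bars are 95% counting intervals. NCOA2 and CREBBP peaked at 16 h in H3K27ac, NCOR1 was lowest at 72 h, and the 4 h point of H3K4me3 was the highest for 6 of the 8 genes.

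A change from 0 m was called where summed contact differed by at least 1.5-fold and both time points together held at least 50 read pairs. In H3K27ac, CREBBP was higher among the 7 members with enough read pairs at 30 m, when 18.8% of all coding promoters were higher and 3.24% lower. None of 6 was called at 4 h (background 3.69% higher, 1.07% lower). NCOA2 and CREBBP were higher among 7 at 16 h (18.4% higher, 7.97% lower), and CREBBP among 6 at 72 h (17.9% higher, 5.88% lower). No member was lower in H3K27ac. In H3K4me3, none of 6 members was called at 30 m (background 0.878% higher, 1.44% lower), and CREBBP was higher among 8 at 4 h (14.8% higher, 2.67% lower). None of 8 was called at 16 h (3.9% higher, 0.504% lower), and EP300 was lower among 6 at 72 h (1.4% higher, 5.97% lower). The CREBBP calls all rest on 1 loop, and none of them was kept under the 5 kb overlap. With so few members, the counts of calls are near the background, and what follows describes the genes one by one.

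All 8 promoters together stayed within 1.5-fold of 0 m at every time and in both marks. Their pooled H3K27ac contact differed from the vehicle by 0.17 on the log2 scale after 30 m (0.07 to 0.27), by -0.10 after 4 h (-0.21 to 0.00), by 0.31 after 16 h (0.21 to 0.40) and by 0.13 after 72 h (0.02 to 0.23). All loops of the study gave 0.09, 0.07, 0.25 and 0.17 in that order. Scaled to equal totals instead of by TMM, the 16 h value was 0.058 and the 72 h value turned to -0.044. In H3K4me3 the pooled changes were 0.17 (0.07 to 0.27), 0.42 (0.34 to 0.49), 0.14 and -0.16, against 0.02, 0.22, 0.14 and -0.13 over all loops. With equal totals the H3K4me3 values at 4 h, 16 h and 72 h were 0.19, 0.00087 and -0.029. The pooled intervals left out the all-loop value in H3K4me3 at 30 m and 4 h, where they lay above it, and in H3K27ac at 4 h, below it. The median coding promoter itself moved, by 0.15 in H3K27ac at 16 h and by -0.16 in H3K4me3 at 72 h, so changes of single genes are also given relative to that median where one is named, a difference that no scaling of a library can alter.

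**Figure D2:**
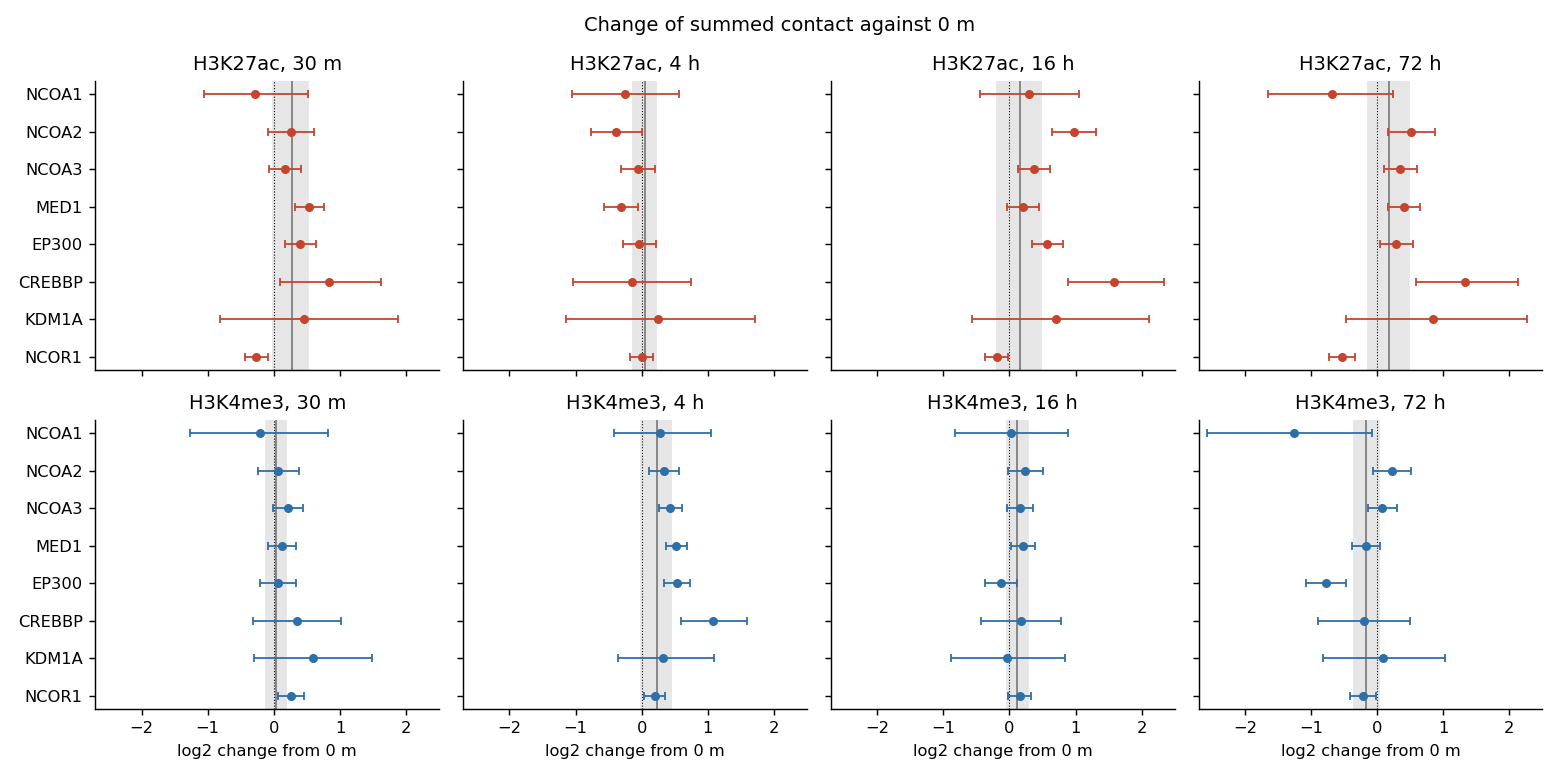
The log2 change of summed contact from 0 m (x axis) of each gene (y axis) by mark (rows) and time (columns), with 95% counting intervals; the grey band is the middle 50% of all coding promoters with enough read pairs, the grey line their median and the dotted line 0. In H3K27ac at 16 h and 72 h NCOR1 lies to the left of the median and NCOA2 and CREBBP to its right, while in H3K4me3 at 72 h EP300 lies far to the left. NCOA1, with fewer than 50 read pairs, lies further left than both at 72 h, at -0.69 in H3K27ac and -1.26 in H3K4me3.

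Among the p160 coactivators, NCOA2 (SRC-2, on chromosome 8 with its start at 71316043 on the minus strand) had the largest H3K27ac rise. Its H3K27ac contact over the 5 time points, in order of time as in all series of values below, was 32.0, 38.1, 24.6, 62.8 and 45.8. It was lowest at 4 h, highest at 16 h and above the starting level at 72 h. The 16 h rise was 0.97 on the log2 scale (0.65 to 1.30, 109 against 296 read pairs) and lay 0.82 above the median promoter, at percentile 95.2, and it was still 0.73 with equal totals. In H3K4me3 the same promoter gave 54.4, 57.0, 68.5, 64.2 and 63.5, none of them past 1.5-fold, with a 16 h change of 0.24 (-0.02 to 0.50).

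At 16 h 24 of the 35 NCOA2 loops held more H3K27ac contact than at 0 m and 11 less, while over all loops of the study 42.7% held more and 48.1% less. Its strongest loop, 5 kb long and ending 3.54 kb inside the gene, gave 3.53, 4.86, 2.99, 10.2 and 8.16 in H3K27ac over the 5 time points, a 16 h rise of 1.53 (0.60 to 2.58). A loop of 255 kb to a partner deep in the same gene, at chr8:71062001-71063000, gave 1.47, 2.34, 1.28, 5.31 and 4.74, a rise of 1.85 (0.44 to 3.59) from 5 to 25 read pairs. These were the only NCOA2 loops with the 30 read pairs set for single loops, and both rose by at least 2-fold, as did 20.8% of all loops with that many. The 255 kb loop reached 30 only through its 16 h read pairs, so its rise is no separate support. The 34 loops other than the short one, all of 20 kb or more, were higher by 0.89 (0.54 to 1.24) in sum, so the gain did not rest on the short loop.

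NCOA3 (SRC-3, a coactivator often amplified in cancer, start on chromosome 20 at 46130631) gave H3K27ac contacts of 65.5, 73.4, 62.8, 84.7 and 83.4. The levels at 16 h and 72 h exceeded that at 0 m by 0.37 (0.13 to 0.61) and 0.35 (0.10 to 0.60), but neither passed 1.5-fold and both intervals include the change of the median promoter. H3K4me3 gave 95.04, 110.3, 128, 106 and 100.3, with 4 h at 0.43 (0.26 to 0.61). The loop with the highest mean contact, 5 kb long and ending 6.87 kb inside the gene, gave 6.76, 8.46, 8.76, 13.2 and 14.5 in H3K27ac. Among the 10 NCOA3 loops with at least 30 read pairs, those to partners 66.9 kb and 117 kb inside the gene had the largest H3K4me3 differences at 16 h, 0.82 (-0.18 to 1.92) and 0.69 (-0.16 to 1.60), whose intervals include 0. One loop of 145 kb reached the promoter of ZMYND8, which encodes a chromatin reader, and held 5.88 at 0 m and 8.92 at 16 h in H3K27ac, a difference of 0.60 (-0.20 to 1.45).

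NCOA1 (SRC-1, start on chromosome 2 at 24714123) had few read pairs, 26 at 0 m in H3K27ac. Its contacts were 7.64, 6.30, 6.41, 9.34 and 4.74, and its 16 h difference of 0.29 had an interval from -0.44 to 1.05. H3K4me3 gave 5.92, 5.12, 7.21, 5.99 and 2.47. With the 36 loops of the 5 kb overlap, H3K27ac contact was 60.5, 41.2, 53.6, 61.1 and 46.0, with differences from 0 m of -0.55 at 30 m (-0.83 to -0.28), 0.01 at 16 h (-0.25 to 0.28) and -0.39 at 72 h (-0.69 to -0.10). H3K4me3 contact was then 35.8, 43.4, 55.8, 57.0 and 45.1, with 0.64 at 4 h (0.36 to 0.92) and 0.67 at 16 h (0.37 to 0.98). Both of these H3K4me3 differences pass the 1.5-fold rule, as did 14.8% of all coding promoters at 4 h and 3.9% at 16 h with the narrower overlap. With the starts of all coding transcripts they were 0.60 (0.34 to 0.86) and 0.56 (0.27 to 0.86), and the 16 h one no longer passed. Under the narrower overlap NCOA1 differed by more than 1.5-fold only at 72 h, at -0.69 in H3K27ac and -1.26 in H3K4me3, with fewer than 50 read pairs.

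MED1 (start on chromosome 17 at 37607516, minus strand) shares its neighbourhood with CDK12, a kinase of elongating RNA polymerase II, whose promoter is the partner of the strongest MED1 loop, 10 kb away. MED1 gave H3K27ac contacts of 70.8, 103, 57.3, 81.5 and 93.7. It was 0.53 above 0 m at 30 m (0.31 to 0.76), below it at 4 h by -0.31 (-0.56 to -0.05) and above it at 72 h by 0.40 (0.16 to 0.65). None of these differences passed 1.5-fold, and relative to the median promoter they were 0.27 (0.05 to 0.49), -0.35 (-0.61 to -0.09) and 0.23 (-0.01 to 0.47). In H3K4me3 it gave 111, 122, 160.0, 129 and 98.9, and the 4 h level, 0.52 above 0 m (0.37 to 0.68), was its highest. At 4 h the marks therefore lay on opposite sides of the starting level.

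Much of the H3K27ac contact of MED1 sat in the loop to CDK12. It gave 21.5, 42.1, 20.9, 37.6 and 40.3 in H3K27ac, and its share of the promoter's contact was 30.3% at 0 m, 41.1% at 30 m and 46.1% at 16 h. The 16 h difference was 0.81 (0.41 to 1.22, 73 against 177 read pairs), short of 2-fold, while the loop of 10 kb into MED1 itself gave 10.6 and 7.43, a difference of -0.51 (-1.22 to 0.20). Without its strongest loop MED1 was at -0.17 at 16 h (-0.47 to 0.13) where it stood at 0.20 with it, and with equal totals at -0.044. In H3K4me3 the MED1-CDK12 loop gave 40.3, 46.5, 62.6, 51.6 and 29.1. The other 15 loops of MED1 to promoters reached, among others, FBXL20, GRB7, STARD3 and RPL23, with at most 3.82 of H3K27ac contact at 0 m.

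**Figure D3:**
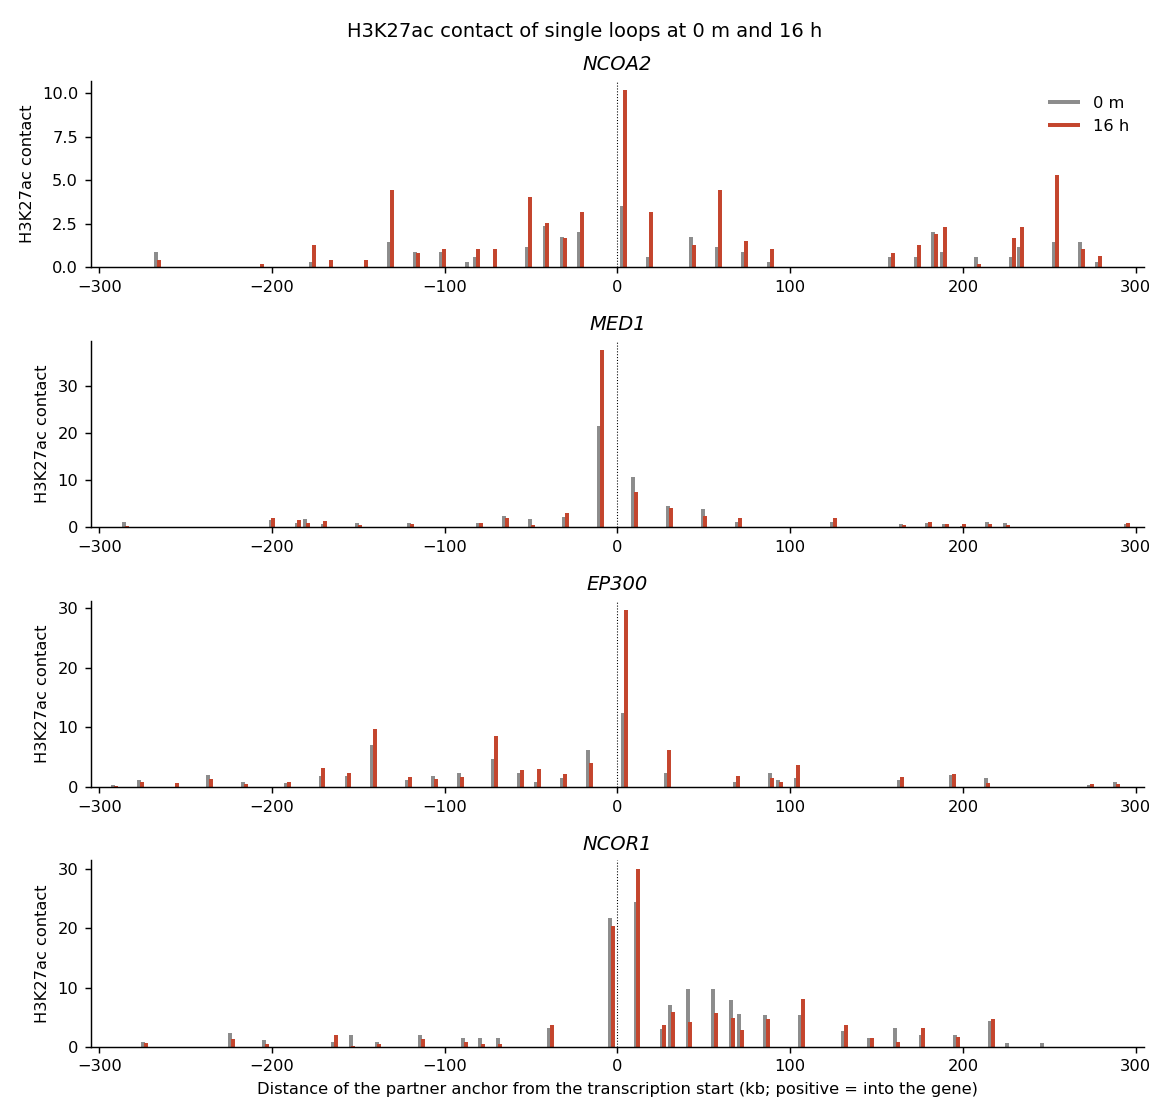
H3K27ac contact (y axis, TMM-scaled units) of single loops of NCOA2, MED1, EP300 and NCOR1 at 0 m (grey) and 16 h (red), drawn at the distance of the partner anchor from the start (x axis, kb, positive into the gene; loops beyond the axis are not drawn). Red exceeds grey at the highest loop of each of the 4 genes, from 24.4 to 29.9 at NCOR1 and from 12.3 to 29.7 at EP300.

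The acetyltransferases EP300 and CREBBP are near relatives with shared substrates. EP300 (start on chromosome 22 at 41488596) gave H3K27ac contacts of 67.0, 88.3, 65.4, 99.4 and 81.8. The 16 h level lay 0.57 above 0 m (0.34 to 0.80), just under the 1.5-fold line, and 0.41 above the median promoter. Its H3K4me3 contacts were 71.4, 74.5, 103, 65.1 and 41.8, so that this mark stood highest at 4 h, at 0.53 (0.33 to 0.73), and lowest at 72 h. The 72 h fall was -0.77 (-1.07 to -0.48, 253 against 152 read pairs), or -0.61 relative to the median promoter, at percentile 1.34. At 72 h H3K27ac was on the other side of 0 m, at 0.29 (0.04 to 0.54).

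Of the 5 EP300 loops with at least 30 read pairs in H3K27ac, 4 were higher at 16 h than at 0 m and 1 lower, at -0.61, against 70.7% higher over all loops with that many. The 5 kb loop to a partner 3.90 kb inside the gene gave 12.3, 18.2, 11.8, 29.7 and 20.8, a 16 h rise of 1.27 (0.76 to 1.80, 42 against 140 read pairs), and the 30 kb loop to chr22:41517001-41518000, also within the gene, gave 2.35, 5.94, 2.56, 6.16 and 4.21, a rise of 1.39 (0.22 to 2.73). A loop of 70 kb to a partner upstream of the gene, between genes, gave 4.70, 9.54, 4.27, 8.49 and 9.21, its 16 h difference of 0.85 (-0.02 to 1.79) being short of 2-fold. The H3K4me3 fall at 72 h was present in short and long loops, at -0.55 (-1.10 to -0.02) under 20 kb and -0.87 (-1.24 to -0.51) at 20 kb or more. A loop of 140 kb joined EP300 to the promoter of RBX1, a ubiquitin ligase subunit, with 7.05 at 0 m and 9.77 at 16 h in H3K27ac, a difference of 0.47 (-0.27 to 1.25).

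CREBBP (start on chromosome 16 at 3930714, minus strand) had the largest H3K27ac rise of the 8 with the 1 kb anchors, and it rested on a single 5 kb loop to chr16:3927001-3928000 in its own gene. The loop gave 6.17, 11.0, 5.56, 18.5 and 15.5 in H3K27ac, with rises of 0.83 at 30 m (0.09 to 1.62), 1.58 at 16 h (0.88 to 2.34, 21 against 87 read pairs) and 1.33 at 72 h (0.59 to 2.12). Relative to the median promoter these were 0.56 (-0.17 to 1.35), 1.43 (0.73 to 2.19) and 1.16 (0.42 to 1.95). In H3K4me3 it gave 11.0, 14.0, 23.2, 12.4 and 9.62, a rise of 1.08 at 4 h (0.59 to 1.60). Like MED1, EP300, NCOA2 and NCOA3, it was lower in H3K27ac at 4 h than at 16 h. None of these calls was kept with the 43 loops of the 5 kb overlap, where H3K27ac contact was 42.0, 49.5, 40.8, 51.0 and 47.4, with differences of 0.24 at 30 m (-0.06 to 0.54), 0.28 at 16 h (-0.03 to 0.59) and 0.17 at 72 h (-0.15 to 0.50). H3K4me3 was then 0.50 above 0 m at 4 h (0.31 to 0.70). With the starts of all coding transcripts the H3K27ac difference at 16 h was 0.22 (-0.07 to 0.52). The rank of CREBBP was lost too, to NCOA2 (0.83) under the 5 kb overlap and to KDM1A (2.17) with all coding starts. Even with the 1 kb anchors its 16 h interval overlaps that of NCOA2, 0.65 to 1.30.

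Of the corepressors, NCOR1 (start on chromosome 17 at 16118848, minus strand) gave H3K27ac contacts of 136, 113, 136, 119 and 94.2. It lay below 0 m by -0.27 at 30 m (-0.44 to -0.09), by -0.19 at 16 h (-0.37 to -0.01) and by -0.53 at 72 h (-0.73 to -0.33), and at 4 h it had the same level as at 0 m. None of these passed 1.5-fold. Relative to the median promoter the differences were -0.54, -0.35 and -0.70, at percentiles 10.9, 24.6 and 7.13. With the starts of all coding transcripts it was -0.12 at 30 m (-0.27 to 0.04), -0.11 at 16 h (-0.27 to 0.05) and -0.29 at 72 h (-0.47 to -0.12) from the 0 m level. Its H3K4me3 contacts of 121, 144, 138, 135 and 104 were above 0 m at 30 m by 0.26 (0.06 to 0.46) and below it at 72 h by -0.21 (-0.42 to -0.01). Relative to the median promoter these 2 differences were 0.22 (0.02 to 0.42) and -0.05 (-0.26 to 0.15), the latter including 0. Among the members with 50 read pairs, NCOR1 alone was under its starting H3K27ac level at 72 h, but NCOA1 was too under the 5 kb overlap.

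The contrast between NCOR1 and the coactivators can be taken within a library, where the scaling cancels. At 4 h the H3K27ac changes of 6 of the 7 other genes lay below that of NCOR1, MED1 by -0.30 (-0.61 to -0.00010) and NCOA2 by -0.38 (-0.80 to 0.03). Of these 6, MED1 alone had an interval that left out 0, and only just. At 72 h the H3K27ac change of NCOR1 was smaller than that of NCOA2 by 1.05 (0.65 to 1.44), of MED1 by 0.93 (0.63 to 1.24), of NCOA3 by 0.88 (0.56 to 1.20) and of EP300 by 0.82 (0.50 to 1.14). For NCOA1 the difference from NCOR1 at 72 h was -0.16 (-1.05 to 0.73), and 0.15 (-0.20 to 0.50) under the 5 kb overlap. At 16 h the differences were 1.17 (0.80 to 1.53) for NCOA2, 0.76 (0.47 to 1.05) for EP300, 0.56 (0.27 to 0.86) for NCOA3 and 0.40 (0.11 to 0.69) for MED1. For KDM1A and NCOA1 the 16 h intervals of the difference, -0.32 to 2.11 and -0.24 to 1.21, include 0. CREBBP exceeded NCOR1 by 1.78 (1.07 to 2.49) on its single loop, and by 0.48 (0.14 to 0.83) under the 5 kb overlap of both genes. In H3K4me3 at 16 h the intervals of all 7 differences from NCOR1 include 0, the widest being that of KDM1A, from -1.01 to 0.64, and at 72 h NCOA2 exceeded NCOR1 by 0.43 (0.09 to 0.78) whereas EP300 lay below it by -0.56 (-0.91 to -0.21).

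Of the 34 NCOR1 loops, 22 held less H3K27ac contact at 16 h than at 0 m and 11 more, while over all loops of the study 48.1% held less and 42.7% more. Of the 22, 7 ended in its own gene, 9 in another gene, 3 between genes and 3 at promoters. Of its 10 loops with at least 30 read pairs 7 were below and 3 above the 0 m level at 16 h, against 29.3% below and 70.7% above over all loops with that many. Those 10 included both NCOR1 loops that passed the 2-fold rule. The loop to chr17:16077001-16078000, 41.3 kb inside the gene, gave 9.70, 4.14, 6.62, 4.25 and 2.89, a fall of -1.19 (-2.07 to -0.35), and the loop to chr17:16047001-16048000, 71.3 kb inside, gave 5.58, 3.96, 6.20, 2.76 and 3.16, a fall of -1.02 whose interval of -2.16 to 0.08 includes 0. The highest NCOR1 loops differed less. The one to a partner 11.3 kb inside gave 24.4 and 29.9 at 0 m and 16 h, and the 5 kb loop to the promoter of PIGL, the neighbouring gene whose start lies within 5 kb, gave 21.7 and 20.4, a difference of -0.09 (-0.55 to 0.36). In H3K4me3, the same loops at 41.3 and 71.3 kb had 16 h differences of -0.22 (-1.13 to 0.70) and 0.46 (-0.48 to 1.45).

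KDM1A (start on chromosome 1 at 23345961) had the least H3K27ac contact, with 8 to 18 read pairs per time point in that mark. Its contacts were 2.35, 3.24, 2.78, 3.82 and 4.21, and the 16 h difference of 0.70 (-0.57 to 2.11) could not be told from 0 at this depth. In H3K4me3 it gave 5.92, 8.88, 7.45, 5.80 and 6.32. Its loop with the highest mean contact, 20 kb long, held no read pair at 0 m and 9 at 16 h in H3K27ac. With the starts of all its coding transcripts KDM1A had 13 loops and an H3K27ac contact of 5.00, 14.6, 10.3, 22.5 and 15.3, a 16 h difference of 2.17 (1.42 to 3.00). Most of it came from a 5 kb loop between chr1:23407001-23408000 and chr1:23412001-23413000, beside a transcript start 59.5 kb downstream of the canonical one, which gave 1.76, 8.10, 5.56, 15.5 and 10.0 (6 against 73 read pairs at 0 m and 16 h). The same loop gave 1.69 and 2.32 in H3K4me3 at 0 m and 16 h. Neither of its anchors lies at the canonical promoter.

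Of single loops, 28 of the 208 held at least 30 read pairs in H3K27ac at 0 m and 16 h together, of which 5 rose by at least 2-fold (2 of NCOA2, 2 of EP300 and 1 of CREBBP) and 2 fell (both NCOR1). Over 42472 loops of the study, 20.8% rose and 3.27% fell by this rule. In H3K4me3, none of 40 rose or fell by 2-fold, against 3.57% and 1.15% of 44096 loops, and the differences ran from -0.54 to 0.82.

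In H3K27ac short loops were higher at 16 h relative to long ones, at these promoters and elsewhere. There the change of loops under 20 kb exceeded that of longer ones by 0.58 (0.11 to 1.04) at MED1, 0.52 (0.15 to 0.88) at NCOR1, 0.65 (-0.33 to 1.62) at NCOA2, 0.43 (-0.07 to 0.93) at EP300 and 0.41 (-0.09 to 0.92) at NCOA3. All 5 members with 50 read pairs in each class showed that sign, as did 75.5% of 7303 coding promoters, whose median difference was 0.39. Over all loops of the study, those under 20 kb changed by 0.55 and longer ones by -0.03. The sign was not particular to 16 h, being found at 74.0% of promoters at 30 m, 72.9% at 4 h and 72.8% at 72 h. At each of these times all 4 members with enough read pairs had it. All these comparisons share the 0 m values. The CREBBP loop belongs to the short class. In the same way the strongest loop took a larger share of the contact at 16 h at all 6 members with enough read pairs, and at 73.3% of all promoters. The share went from 18.4% to 29.9% at EP300, from 17.9% to 25.2% at NCOR1 and from 11.0% to 16.2% at NCOA2. In H3K4me3 the sign held at 3 of 5 members for length, against 61.2% of promoters, and at 5 of 7 for the strongest loop, against 60.8%. At 72 h the H3K4me3 difference by length had the other sign, the median over promoters being -0.17 with 29.2% above 0 and 1 of 4 members.

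**Figure D4:**
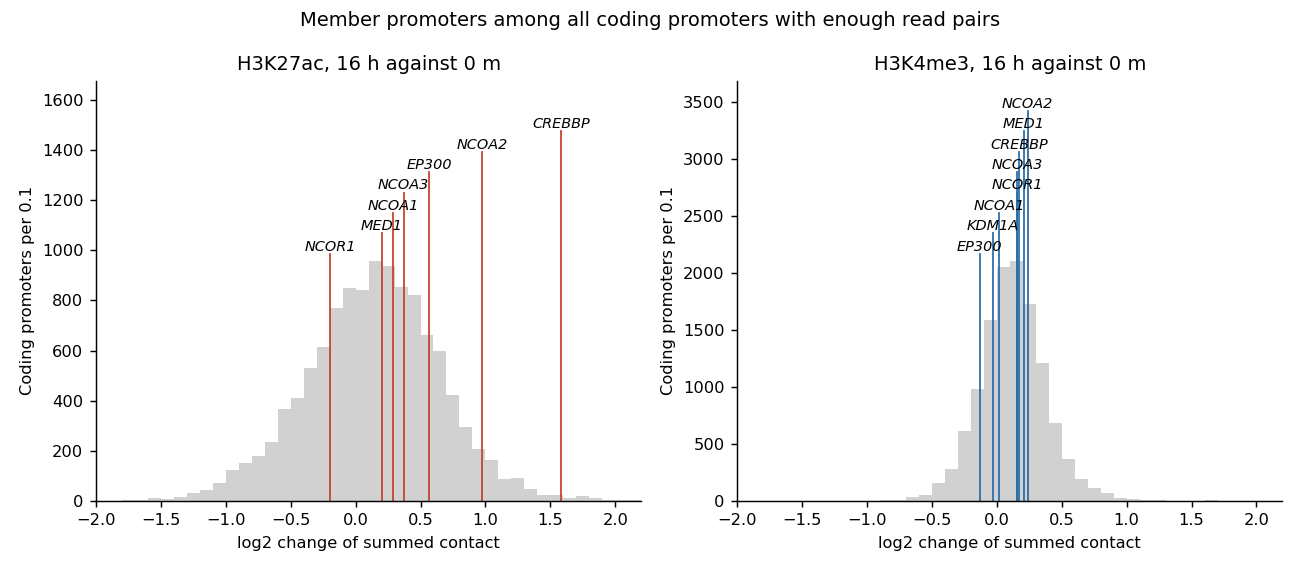
Number of coding promoters (y axis, grey bars, per 0.1 of log2 change) by the log2 change of summed contact from 0 m to 16 h (x axis; promoters beyond the axis are not drawn), with the members that had at least 50 read pairs as lines, red for H3K27ac and blue for H3K4me3; line heights only separate the names. CREBBP and NCOA2 lie in the right tail in H3K27ac, whereas the 8 members in H3K4me3 lie between -0.13 and 0.24.

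Sequence of the partner anchors was compared with that of all anchors, using the 5 kb bin around each. An androgen element was searched as the palindrome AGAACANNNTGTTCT with at least 10 of its 12 fixed letters, which reads the same on both strands, and the forkhead motif TGTTTAC on both strands. The palindrome was found in 61 of the 208 partner bins (29.3%), against 30.3% of 210061 anchors, and the forkhead motif in 96 (46.2%), against 53.2%. By gene, the palindrome was found in 15 of 35 NCOA2 partners and 13 of 34 NCOR1 partners, against 8 of 34 for EP300. Of the 7 loops that passed the 2-fold rule in H3K27ac, 3 had a bin with the palindrome. The bin of the 5 kb EP300 loop and that of the NCOR1 loop 71.3 kb inside the gene each held 1 match and that of the 255 kb NCOA2 loop held 2. The CREBBP bin held no palindrome and 3 forkhead matches. The EP300 and NCOR1 matches are shown with 20 bases on either side, as examples from a loop that rose and one that fell; capitals mark the palindrome's outer letters and neither lies in an exon of a coding gene.
EP300 gene body, chr22:41492120-41492174, plus strand: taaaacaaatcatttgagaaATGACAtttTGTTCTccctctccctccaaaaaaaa
NCOR1 gene body, chr17:16045122-16045176, plus strand: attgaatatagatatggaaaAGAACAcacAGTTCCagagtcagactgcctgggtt

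The nearest matches in pattern were sought among coding promoters of other chromosomes with at least 200 read pairs in every table, by Euclidean distance over the 8 log2 changes. NCOR1 lay nearest to HNRNPA2B1 (0.19 among 1829 promoters, whose median distance was 1.31), NCOA3 to CLASP1 (0.19, median 0.81), MED1 to NAA25 (0.21, median 0.82), EP300 to CSNK1D (0.29, median 0.93) and NCOA2 to MANBA (0.40, median 1.11). CREBBP, KDM1A and NCOA1, with 21, 8 and 9 read pairs in their thinnest table, lay nearest to LRATD2, PTPN1 and RAB40C at 0.45, 0.45 and 0.92.

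A wider list of 60 further coregulator genes was read in the same way. Of these, 59 had loops, and at 16 h in H3K27ac 10 of 57 with enough read pairs were higher and 4 lower by 1.5-fold (all promoters 18.4% and 7.97%), with a median change of 0.16 against 0.15 over all promoters. In H3K4me3, 12 of 59 were higher at 4 h (all promoters 14.8%) and 6 of 56 lower at 72 h (5.97%). The 6 with the largest H3K27ac change at 16 h were the histone demethylase gene KDM4B (0.96, from 17.0 to 33.1), the Mediator genes MED24 (-0.95, from 34.4 to 17.8) and MED12 (0.90, from 16.2 to 30.1), the corepressor CTBP2 (0.94, from 24.98 to 48.0), the SWI/SNF gene ARID1A (0.85, from 131 to 236) and the SUMO ligase PIAS4 (-0.80, from 45.5 to 26.1). CTBP2 had 1 loop and KDM4B 2, and the others 15 to 26. All 6 intervals left out 0, the nearest bounds being 0.44 for MED12 and -0.45 for PIAS4. The genes were picked by the size of this same change, so these intervals add no support. In H3K27ac at 16 h, coactivator genes, MED24 among them, were thus found in both directions. In H3K4me3 at 16 h KDM4B was at 0.36 (0.02 to 0.70) and ARID1A at -0.27 (-0.49 to -0.04). MED24 (0.19), PIAS4 (0.14), MED12 (-0.07) and CTBP2 (-0.20) had H3K4me3 intervals that include 0. KDM4B alone kept the sign of its H3K27ac change.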

How the data were processed

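HiChIP libraries of LNCaP cells were made by the authors for H3K27ac and H3K4me3 at 5 time points. Per the labels and methods, adapters were removed by Trim Galore 0.5.0 and pairs were mapped to hg19 by HiC-Pro 3.1.0, which runs Bowtie2 (MboI fragments, unique non-duplicate pairs), and loops were called by the authors with FitHiChIP in 5 kb bins on the merged read pairs of each mark. The deposited value is a contact signal per loop and time point, taken with Cooler and scaled by TMM among the time points of a mark. Whether both H3K27ac replicates entered it is not given in the sources used here. The level of the mark at the anchors enters every value.

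The 10 tables list the same 296326 H3K27ac and 278491 H3K4me3 loops. 100% of values were whole multiples (tolerance 0.001) of the smallest value, so read pairs were recovered by division. The H3K27ac values carry no replicate. Contacts were summed per promoter, each anchor pair once, and log2 ratios to 0 m have exact conditional binomial (Clopper-Pearson) 95% intervals; intervals of differences between genes or loop classes are normal approximations from the same counts. The recovery, the intervals and the call rule were tested on simulated data. Genome sequence was read from GRCh37. Computation used scipy 1.17.1 and pandas 2.3.3 with numpy 2.4.6 under Python 3.11.15.

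The genes and lists were chosen with earlier results of these data known. Named were all 8 genes; per gene and mark the loop of highest mean contact and at most 2 more with the largest 16 h change among loops with at least 30 read pairs; at most 6 further coregulators by the 16 h H3K27ac change with at least 100 read pairs; and the nearest promoter in pattern. Loops to ZMYND8, RBX1 and the further promoters of MED1 were chosen after their values were seen. Scaling, loop length, overlap, transcript starts, weak loops, loop set and the strongest loop were varied. Of the luminal marker genes, values of KLK3 and KLK2 are given and the others are not reported here.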

Additional observations from a re-analysis of the deposited data

Results flagged for a closer look

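In 3 cases the intervals of both marks lay on opposite sides of the 0 m level for the same gene and time. At 72 h EP300 was 0.29 above 0 m in H3K27ac and -0.77 in H3K4me3, the H3K27ac change minus the H3K4me3 change being 1.06. At 4 h MED1 was at -0.31 in H3K27ac and 0.52 in H3K4me3, a difference of -0.83. At 30 m NCOR1 was at -0.27 in H3K27ac and 0.26 in H3K4me3, a difference of -0.53. The difference between the marks was not tested, since each mark was scaled apart and has 1 value per time point. The median promoter was at 0.17 and -0.16 at 72 h, at 0.04 and 0.23 at 4 h, and at 0.27 and 0.04 at 30 m in H3K27ac and H3K4me3. Relative to that median, EP300 at 72 h in H3K27ac was 0.12 with an interval of -0.14 to 0.37, so that the opposite sides are lost, whereas MED1 at 4 h (-0.35 and 0.30) and NCOR1 at 30 m (-0.54 and 0.22) kept them. With the starts of all coding transcripts NCOR1 at 30 m was -0.12 in H3K27ac (-0.27 to 0.04) and 0.13 in H3K4me3 (-0.05 to 0.31). Both of these intervals include 0.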

How the results depend on the processing

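No paired analysis was possible because each mark and time point has 1 deposited value per loop, so that the 2 H3K27ac replicates cannot be read apart. Of the values that answer a comparison, recomputed with 1 choice changed at a time, 71 stayed within their interval or within 1.5 times their count, 17 moved further and 3 changed sign. With equal totals per library in place of TMM, the pooled log2 change was 0.058 at 16 h and -0.044 at 72 h in H3K27ac, and 0.19 at 4 h, 0.00087 at 16 h and -0.029 at 72 h in H3K4me3. With loops of at least 20 kb it was 0.047 at 30 m, 0.14 at 16 h and -0.033 at 72 h in H3K27ac and 0.34 at 4 h in H3K4me3, and without the strongest loop of each promoter 0.097 at 16 h and -0.044 at 72 h in H3K27ac. The members higher by 1.5-fold at 16 h in H3K27ac were 2 as reported, 1 (NCOA2) with loops of at least 20 kb, with the 5 kb overlap and without the strongest loops, and 4 (NCOA1, NCOA2, EP300 and CREBBP) with a mean contact of at least 1. With the starts of all coding transcripts they were NCOA2 and KDM1A, without CREBBP. In H3K4me3 they were none as reported and 1 (NCOA1) with the 5 kb overlap. The 208 loops became 370 with the starts of all coding transcripts, 90 and 120 with a mean H3K27ac or H3K4me3 contact of at least 1, and 127 in the H3K27ac set alone. NCOA2 passed 1.5-fold at 16 h in H3K27ac under every alternative run. NCOR1 ranged in H3K27ac at 16 h from -0.44 with equal totals to -0.11 with all coding starts, and its interval included 0 with all coding starts, with a mean contact of at least 1 (-0.33 to 0.04) and with loops called in the mark itself (-0.42 to 0.05). The cause of these shifts was not tested. The depth leaves NCOA1, KDM1A and CREBBP with 8 to 26 read pairs at 0 m in H3K27ac.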
